A study of Mus musculus with 4 samples.

Results

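Endothelial cells, which line the blood vessels of a tumour, made up 180 of the 42710 cell barcodes kept from 4 subcutaneous MC38 tumours. MC38 is a mouse colon carcinoma line. KO tumours grew from MC38 cells in which Hnrnpa2b1, the gene of an RNA-binding protein, had been knocked out, and WT tumours grew from wild-type MC38 cells. Every host was a C57BL/6J mouse aged 8 weeks, and each group had 2 tumours. The knockout was made in the injected cells and no edit of the hosts is stated, so the endothelial cells of both groups come from host tissue with no stated edit. The position of the edit, the number of clones behind the KO line and any pooling of animals are not stated in the labels. Whole tumours were minced and digested with collagenases, DNase I and dispase II before droplet-based single-cell RNA-seq, with no sort stated.

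Vessels are built from arterial, capillary and venous segments, and each segment keeps its own gene programme. Sprouting angiogenesis is led by tip cells that respond to VEGF, while leukocytes leave the blood mainly through postcapillary venules, whose endothelium displays selectins, integrin ligands and chemokine receptors. Inflammatory cytokines acting through NF-kappaB raise those adhesion molecules, and tumour vessels are known for abundant sprouting and for weak display of them.

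The cells were chosen by measured UMIs. A barcode counted as endothelial when it held at least 300 genes, at least 500 UMIs (unique molecular identifiers, 1 per captured RNA molecule) and at most 20% mitochondrial UMIs. It also had to show UMIs of at least 3 of the 7 genes Pecam1, Cdh5, Kdr, Egfl7, Emcn, Plvap and Cldn5, no UMI of the leukocyte gene Ptprc, and under 20 UMIs per 10000 over 7 genes of the tumour cells (Krt14, Sox9, Hmga2, Tnnt2, Tubb3, Crabp2 and Ankrd1). The KO tumours gave 47 and 72 such cells, and the WT tumours gave 48 and 13. Their UMIs summed to 643839 and 770853 in the KO tumours, against 432753 and 80508 in the WT tumours. The median depth per cell was 11352 and 8602 UMIs in KO, against 6777 and 4207 UMIs in WT. The second WT tumour therefore contributed the fewest and the shallowest cells, and each comparison below rests in part on those 13 cells. No barcode of these cells recurred in another library. Libraries held 114136609 to 153162562 UMIs in all, and Hnrnpa2b1 in the barcodes above the tumour-gene limit stood at 377 and 311 CPM (UMIs scaled to a common library total) in KO, against 585 and 598 in WT, so its RNA was lower but not absent in the KO tumour cells.

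The genes of the rule describe the cells, and no test is read from them. Pecam1, an adhesion protein of endothelial junctions, was detected in 97.9% and 95.8% of the KO cells and in 95.8% and 100% of the WT cells, against 15.9% and 12.7% of the other KO barcodes and 4.12% and 3.90% of the other WT barcodes. Cdh5, the cadherin of endothelial junctions, was detected in 95.7% and 91.7% of the KO cells and in 93.8% and 100% of the WT cells, and in at most 1.72% of the other barcodes of any tumour. Kdr, the main VEGF receptor, stood at 505 and 496 CPM in the KO cells, against 492 and 497 in the WT cells. Emcn, a sialomucin of venous and capillary endothelium, and Plvap, the protein of fenestral diaphragms, were each found in at least 76.9% of the cells of every tumour. All 7 rule genes were present in 75 cells and 6 of them in 69 cells. At the edge of the rule, 12 cells carried exactly 3 of the genes and 88 barcodes just outside carried exactly 2. The endothelial receptor gene Tie1, which the rule did not use, stood at 17.5 CPM in those 12 cells, 1.59 in those 88 barcodes and 321 in the 75 cells with all 7 genes, so the weakest members are less clearly endothelial than the rest.

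Genes outside the rule marked the same cells in every tumour. Of 1223 genes at 100 CPM or more in all 4 endothelial sums, 80 exceeded 10 times their level in the other barcodes of each tumour. The leading 15 were Pcdh17, Cyyr1, Aplnr, Ptprb, Fam167b, Fgd5, Tie1, Rapgef5, Mmrn2, Myct1, Tmem252, Robo4, Adgrl4, Erg and Esam, with lowest folds between 147 and 227. Ptprb encodes the phosphatase that restrains the Tie2 receptor, Mmrn2 a vascular matrix protein, Robo4 an endothelial guidance receptor and Erg a transcription factor that maintains endothelial identity. Erg stood at 157 and 179 CPM in the KO cells and at 139 and 186 in the WT cells. These values describe what the rule selected and were not tested. Lymphatic endothelium was scarce: Prox1, its master transcription factor, was detected in 2.78% of the 180 cells and Lyve1 in 4.44%.

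The share of endothelial cells was higher in the KO tumours when set against all barcodes and overlapped when tumour cells were left out. Of all barcodes kept, 0.502% and 0.758% were endothelial in KO, against 0.380% and 0.116% in WT. Both KO tumours lay above both WT tumours, but the log2 ratio of 1.33 (SE 0.68, a 2.52-fold difference) did not pass a quasi-likelihood test in edgeR on the numbers of barcodes (Benjamini-Hochberg adjusted p = 0.155 over 6 classes). Of the barcodes below the tumour-gene limit, 0.573% and 1.02% were endothelial in KO, against 0.669% and 0.159% in WT. Here the first WT tumour lay between the KO tumours, with a log2 ratio of 0.94 (SE 0.89, edgeR adjusted p = 0.418). Without the first WT tumour the log2 ratios were 2.43 and 2.29, and without the second they were 0.73 and 0.23. Per 1000 Ptprc-positive barcodes there were 7.07 and 13.03 endothelial cells in KO, against 20.2 and 5.57 in WT, because KO tumours held 6652 and 5527 Ptprc-positive barcodes and WT tumours 2376 and 2336. Differences in how well vessels were digested cannot be told apart from differences in how many vessel cells a tumour held.

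**Figure D1:**
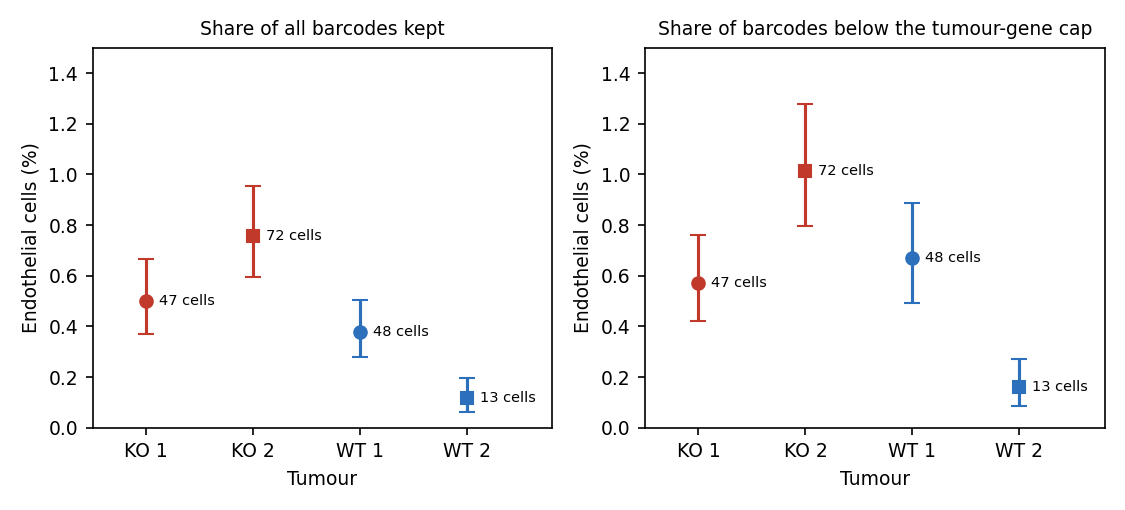
Endothelial cells as a percentage of all barcodes kept (left) and of barcodes below the tumour-gene limit (right), 1 point per tumour with its exact 95% binomial interval, which covers counting error only, and the number of cells beside it. The KO tumours sit at 0.502% and 0.758% against 0.380% and 0.116% in WT on the left, and on the right the first WT tumour, at 0.669%, lies between them.

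The UMIs of the endothelial cells were summed per tumour and compared between KO and WT with edgeR, so that tumours and not cells were the replicates. Of 7158 genes tested, 35 rose and 5 fell in KO at an adjusted p under 0.05, or 0.489% and 0.0699% of the genes, and the median log2 fold change of all genes was 0.0035. At an unadjusted p under 0.05, 536 genes (7.49%) were higher and 290 genes (4.05%) lower in KO. Together 0.559% of the genes passed. In 40.8% of all genes both KO tumours lay beyond both WT tumours in one direction or the other, so separation of the groups alone is common. Fits that leave out 1 tumour are given below as a check on single tumours. Each leaves a group with 1 tumour, so that group adds nothing to the measured spread. A pass in such a fit is therefore not read as support for a gene that did not pass on all 4 tumours. Levels of single genes below are CPM after TMM scaling, whose factors ran from 0.983 to 1.02, while sums over lists are without that scaling.

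**Figure D2:**
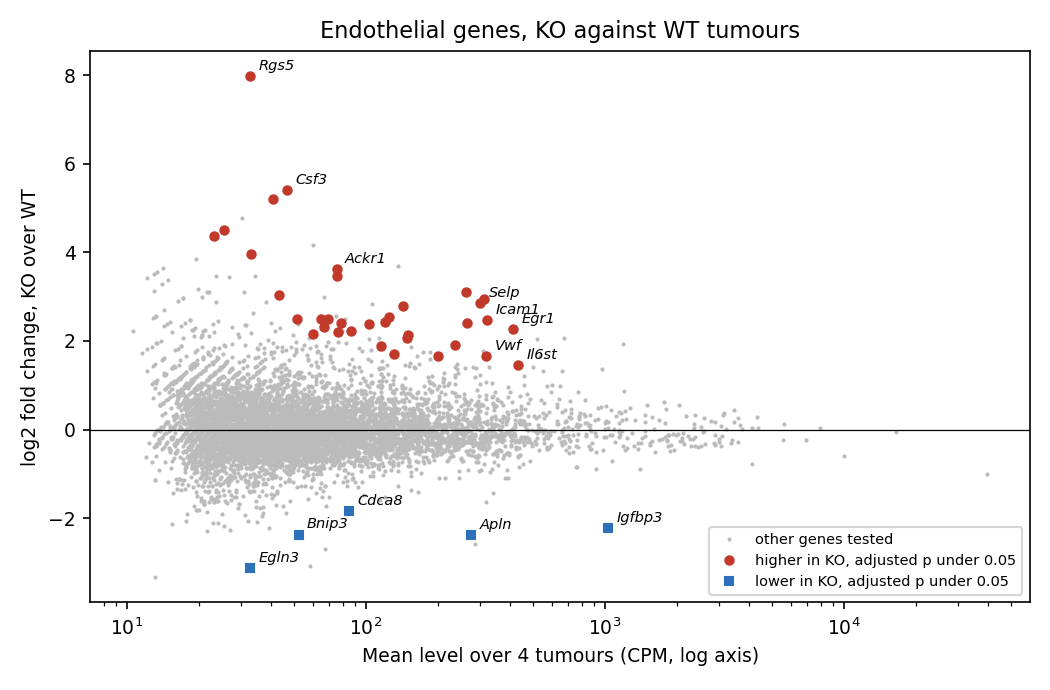
The log2 fold change of each gene (KO over WT, vertical axis) against its mean level over the 4 tumours (CPM, log axis) in endothelial cells. The 35 genes that rose (red circles) include Selp, Icam1 and Egr1, and the 5 that fell (blue squares) are Egln3, Apln, Bnip3, Igfbp3 and Cdca8.

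The adhesion molecules by which venules capture leukocytes were higher in the KO endothelium. Selp encodes P-selectin, on which leukocytes roll, and lies at chr1:164115264-164150026 of mm10. It stood at 544 and 548 CPM in KO, against 96.9 and 12.6 CPM in WT, a log2 fold change of 2.85 (SE 0.42, edgeR adjusted p = 0.0228). Both KO tumours were far above the first WT tumour, and in the second WT tumour the value is a single UMI. Sele encodes E-selectin, which shares that role and is made on demand after cytokine exposure. It stood at 245 and 207 CPM in KO, against 48.4 CPM and 0 in WT (log2 fold change 2.54, SE 0.46, edgeR adjusted p = 0.034). Icam1, the ligand of the leukocyte integrins LFA-1 and Mac-1, had 445 and 639 CPM in KO, against 96.9 and 101 CPM in WT. Its WT values nearly coincided and both KO values were above them, with a log2 fold change of 2.46 (SE 0.33, edgeR adjusted p = 0.0174). Ackr1, the atypical chemokine receptor that marks venules and presents chemokines to leukocytes, had 125 and 163 CPM in KO, against 13.8 CPM and 0 in WT (log2 fold change 3.62, SE 0.50, edgeR adjusted p = 0.0174). Vcam1, the ligand of the integrin VLA-4, had 483 and 341 CPM in KO, against 168 and 126 CPM in WT. Its groups did not overlap, but the log2 fold change of 1.40 (SE 0.31) did not pass (edgeR adjusted p = 0.0769) and ran from 0.96 to 1.73 under the 16 alternative settings. Leaving out the first WT tumour took the log2 fold change of Selp to 5.44, of Sele to 9.83 and of Ackr1 to 9.18, since the second held 1 UMI of Selp and none of the others, and all 4 calls held without any 1 tumour. Selp did not pass after subtraction of free RNA (edgeR adjusted p = 0.0584) or at equal depth of the sums (edgeR adjusted p = 0.0727). Sele did not pass without normalization factors (edgeR adjusted p = 0.0535), with at least 4 rule genes per cell (edgeR adjusted p = 0.0504) or after subtraction of free RNA (edgeR adjusted p = 0.0781). Ackr1 was too low to be tested at equal depth or once cells with 3 mural or macrophage genes were removed, and Icam1 passed throughout.

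The promoters of Selp and Sele, which neighbour each other on chromosome 1, are shown with those of Fosb, an immediate early gene that rose, and Bnip3, a hypoxia gene that fell, because they represent the programmes that moved. Each is the 250 bases before the RefSeq start of the gene on GRCm38.p6, 5′ to 3′ on the gene's strand. Capitals mark matches on either strand to an NF-kappaB consensus, to the core of the hypoxia response element (ACGTG or GCGTG) or to an AP-1 site (TGACTCA or TGAGTCA). The windows are chr1:164115014-164115263 (plus strand) for Selp, chr1:164047984-164048233 (plus strand) for Sele, chr7:19310046-19310295 (minus strand) for Fosb and chr7:138909507-138909756 (minus strand) for Bnip3.
Selp: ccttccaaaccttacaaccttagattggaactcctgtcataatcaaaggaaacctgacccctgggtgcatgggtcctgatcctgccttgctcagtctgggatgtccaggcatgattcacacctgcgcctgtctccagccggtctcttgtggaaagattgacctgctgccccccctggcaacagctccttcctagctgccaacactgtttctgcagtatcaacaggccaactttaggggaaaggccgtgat
Sele: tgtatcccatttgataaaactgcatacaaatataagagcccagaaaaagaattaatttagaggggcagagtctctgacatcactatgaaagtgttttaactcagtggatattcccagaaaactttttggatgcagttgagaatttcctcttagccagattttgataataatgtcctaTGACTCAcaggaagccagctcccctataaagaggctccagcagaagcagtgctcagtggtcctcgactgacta
Fosb: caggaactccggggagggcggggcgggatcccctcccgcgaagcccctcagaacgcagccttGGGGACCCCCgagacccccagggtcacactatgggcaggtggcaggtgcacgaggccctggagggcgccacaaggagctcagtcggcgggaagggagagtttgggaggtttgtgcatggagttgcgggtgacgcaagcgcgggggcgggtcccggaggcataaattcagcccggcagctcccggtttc
Bnip3: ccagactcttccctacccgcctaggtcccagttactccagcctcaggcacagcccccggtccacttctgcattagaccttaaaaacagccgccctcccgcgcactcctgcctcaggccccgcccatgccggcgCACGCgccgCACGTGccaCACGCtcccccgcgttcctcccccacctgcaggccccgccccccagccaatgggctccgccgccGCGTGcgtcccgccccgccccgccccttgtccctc
Sele held 1 AP-1 match at -73 to -67 from the start and Fosb 1 NF-kappaB match at -188 to -179. Bnip3 held 5 hypoxia cores, clustered between -117 and -95 except for 1 at -35 to -31. Selp held none of the 3 motifs. Promoter windows of 300 bases, 50 of them past the start, were found for 30 of the 40 genes that passed. The NF-kappaB consensus was in 3 of 25 windows of genes that rose and 0 of 5 of genes that fell, against 4.51% of all 32851 windows. The hypoxia core was in 9 of 25 and 4 of 5, against 43.8% of all windows, and the AP-1 site in 3 of 25 and 0 of 5, against 5.20%. A match describes the letters only.

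Of 15 leukocyte adhesion genes tested, these 4 (Selp, Sele, Icam1 and Ackr1) rose and none fell, and 12 were higher in KO, with a median log2 fold change of 0.74. That median was 0.28 without the first WT tumour, 1.30 without the second and 0.14 at equal depth. The wider set of venous and postcapillary genes was higher in KO as a group. Of 17 listed genes 16 were tested, 7 rose and none fell, and all 16 had a positive log2 fold change, with a median of 1.43 against 0.0035 over all genes tested. Beside Selp, Sele, Ackr1 and Icam1, the 7 were Vwf, Il6st and Csf3. Most of the 7 are not particular to this list. Sele and Icam1 also stand in the NF-kappaB list, Csf3 and Ackr1 in the chemokine list, and Vwf among the endothelial genes outside the rule. Whether the list reflects venous identity or genes induced by inflammation was not tested. Vwf, the clotting glycoprotein stored with P-selectin in Weibel-Palade bodies, had 395 and 568 CPM in KO, against 148 and 164 CPM in WT (log2 fold change 1.66, SE 0.31, edgeR adjusted p = 0.0457). Il6st, the signalling receptor of the interleukin-6 family, had 633 and 636 CPM in KO, against 226 and 240 CPM in WT (log2 fold change 1.46, SE 0.28, edgeR adjusted p = 0.0461). The tumours of a group nearly coincided for Il6st, while for Vwf only the WT tumours did, and in neither gene did the groups overlap. Csf3, the cytokine that drives neutrophil production, had 133 UMIs in the KO cells of both tumours together and 1 UMI in WT, a ratio of 48.3 with a counting interval of 8.51 to 1920. Its UMIs came from 8 and 14 KO cells and 1 WT cell, and 35 of the 54 in the first KO tumour were in a single cell. Vwf lost its call without the second KO tumour (log2 fold change 1.38, edgeR adjusted p = 0.183), and Il6st without the first (1.47, edgeR adjusted p = 0.112) or the second (1.47, edgeR adjusted p = 0.152). Glycam1, a mucin of high endothelial venules in the adhesion list, had 153 UMIs in KO against 3 in WT and did not pass (edgeR adjusted p = 0.0516).

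**Figure D3:**
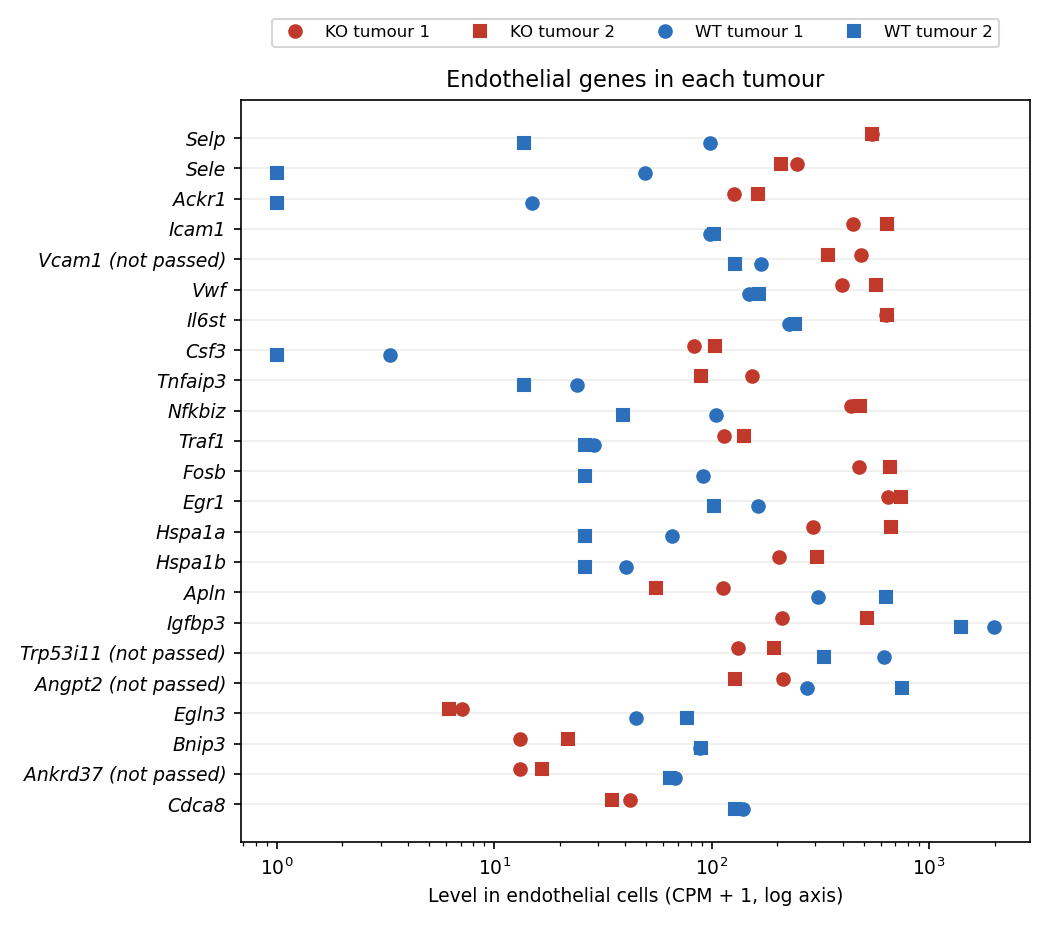
Levels of 23 genes in the endothelial cells of each tumour (CPM + 1, log axis), with KO tumours in red above WT tumours in blue on each line, and circles and squares for tumours 1 and 2. Selp and Icam1 lie far to the right in both KO tumours, Igfbp3 and Apln far to the right in both WT tumours, and Vcam1, Trp53i11, Angpt2 and Ankrd37 did not pass the test.

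Selectin RNA was found in more of the KO cells, which were also deeper. Selp was detected in 21 of 47 (44.7%) and 31 of 72 (43.1%) KO cells, against 10 of 48 (20.8%) and 1 of 13 (7.69%) WT cells. Fibroblast-gate cells, which should lack it and were deeper still (median 18898 and 20465 UMIs in KO, 10440 and 11227.5 in WT), showed it in at most 0.963% of cells in any tumour. Icam1 was not confined to vessels and was also higher in KO outside them. It was detected in 44.7% and 35.6% of fibroblast-gate cells in KO, against 4.76% and 3.17% in WT, in a gate whose make-up differed between groups. Among Ptprc-positive barcodes it was detected in 42.9% and 40.0% in KO, against 21.2% and 20.9% in WT. Sele was detected in 38.3% and 40.3% of KO cells, against 18.8% of the cells of the first WT tumour and 0 of 13 in the second, which allows a share of up to 23.1%. Most Ackr1-positive cells also carried Selp, in 9 of 11 and 18 of 19 KO cells and 2 of 3 WT cells. Ackr1 was less confined to endothelium than Selp in the first KO tumour, with 11.2% of fibroblast-gate cells against 23.4% of endothelial cells. In the second KO tumour 1.05% of fibroblast-gate cells showed it, and in WT 0.708% and 1.07%. When each cell was thinned to 1000 UMIs, leaving out 4 shallower cells (1 and 1 in KO, 2 and 0 in WT), 54.3% and 53.5% of KO cells showed at least 3 venous and postcapillary genes, against 39.1% and 38.5% of WT cells. Without thinning the shares were 93.6% and 93.1% in KO, against 91.7% and 92.3% in WT, and thinned fibroblast-gate cells reached 8.70% and 6.24% in KO and 3.26% and 3.39% in WT. With at least 2 genes in thinned cells, which was the main measure, the shares were 65.2% and 74.6% in KO, against 52.2% and 61.5% in WT. With at least 1 gene the groups overlapped, at 93.5% and 85.9% in KO, against 78.3% and 92.3% in WT. These shares describe the cells and were not tested.

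Of 19 NF-kappaB target and feedback genes tested, 5 rose (Sele, Tnfaip3, Icam1, Nfkbiz and Traf1), none fell, 14 did not pass and 18 were higher in KO, with a median log2 fold change of 1.08. Sele and Icam1 stand in the venous and adhesion lists too. Tnfaip3 encodes the A20 enzyme that shuts NF-kappaB signalling down, and had 153 and 88.4 CPM in KO, against 23.1 and 12.6 CPM in WT (log2 fold change 2.49, SE 0.47, edgeR adjusted p = 0.0457). Nfkbiz, an inducible NF-kappaB cofactor, had 438 and 479 CPM in KO, against 104 and 37.9 CPM in WT (log2 fold change 2.40, SE 0.35, edgeR adjusted p = 0.0228). Nfkbia, the classical inhibitor, had 1723 and 2118 CPM in KO, against 711 and 215 CPM in WT, and did not pass (log2 fold change 1.93, SE 0.43, edgeR adjusted p = 0.0769). Without the first KO, the first WT or the second WT tumour it stood at 2.13, 3.19 and 1.45. The groups did not overlap in any of the 3 genes. Tnfaip3 lost its call without the first WT tumour (log2 fold change 3.25, edgeR adjusted p = 0.107), as did Traf1 (2.34, edgeR adjusted p = 0.144), and Nfkbiz then stood at 3.62 with its call kept. The cytokine receptor gene Osmr, which rose outside the lists and was named after its values were seen, pairs with Il6st and had 116 and 173 CPM in KO, against 32.3 and 25.3 CPM in WT (log2 fold change 2.22, SE 0.40, edgeR adjusted p = 0.034), a call lost without the second KO tumour (1.92, edgeR adjusted p = 0.0556) or the first WT tumour (2.54, edgeR adjusted p = 0.108).

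Immediate early and stress genes, which are transcribed within minutes of a stimulus and also during tissue digestion, were higher in KO throughout the list. Of 24 genes tested, 4 rose (Hspa1a, Fosb, Hspa1b and Egr1) and none fell, all 24 were higher in KO, and the median log2 fold change was 1.39. Fosb, a subunit of AP-1, had 477 and 657 CPM in KO, against 90.0 and 25.3 CPM in WT (log2 fold change 2.94, SE 0.40, edgeR adjusted p = 0.0174). Egr1, a serum-responsive transcription factor, had 648 and 737.5 CPM in KO, against 161 and 101 CPM in WT (log2 fold change 2.27, SE 0.31, edgeR adjusted p = 0.0174). Hspa1a and Hspa1b encode almost identical inducible heat shock proteins, so the split of reads between them is uncertain. Hspa1b had 203 and 303 CPM in KO, against 39.2 and 25.3 CPM in WT (log2 fold change 2.79, SE 0.39, edgeR adjusted p = 0.0174), and Hspa1a had a log2 fold change of 3.11 (SE 0.49, edgeR adjusted p = 0.0289). Both KO tumours were above both WT tumours in all 4 genes. Without the first WT tumour the log2 fold change of Fosb was 4.51 and that of Hspa1a 4.27, and without the second KO tumour that of Hspa1a was 2.43, all past the threshold. The summed list stood at 12130 and 15039 CPM in the KO cells, against 7057 and 4633 in the WT cells. In all other barcodes pooled it stood at 12086 and 11191 in KO, against 8712 and 8121 in WT. That pool held 6652 and 5527 Ptprc-positive barcodes in KO, against 2376 and 2336 in WT, so its sums also follow the mix of cell types. Among Ptprc-positive barcodes Egr1 was detected in 48.4% and 30.6% in KO, against 57.7% and 44.3% in WT. Fosb was detected there in 62.1% and 51.0% in KO, against 50.6% and 44.4% in WT. The pooled NF-kappaB list lay the same way, at 3438 and 2970 in KO against 1589 and 1560 in WT, with the same limit. The pooled venous list overlapped, at 919 and 810 in KO against 789 and 855 in WT. After subtraction of free RNA, an alternative chosen after seeing the data, the median log2 fold change was 1.59 for the immediate early list, with 3 genes past the threshold, and 1.03 for the NF-kappaB list, with 1 (Icam1). Without the first WT tumour the immediate early median was 2.08. The part of digestion in these differences was not tested.

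The angiogenic tip programme was lower in KO. Of 21 tip and sprouting genes tested, 2 fell (Apln and Igfbp3), none rose and 19 were lower, with a median log2 fold change of -0.64. Apln, the peptide that tip cells secrete to neighbours carrying its receptor, had 111 and 54.6 CPM in KO, against 307 and 632 CPM in WT (log2 fold change -2.39, SE 0.42, edgeR adjusted p = 0.034). Igfbp3, an insulin-like growth factor binding protein, had 210 and 516 CPM in KO, against 1984 and 1403 CPM in WT (log2 fold change -2.23, SE 0.41, edgeR adjusted p = 0.0399). No KO tumour reached the lower WT tumour in either gene. Trp53i11 had 131 and 193 CPM in KO, against 618 and 329 CPM in WT (log2 fold change -1.63, SE 0.33, edgeR adjusted p = 0.0548), and -0.98 without the first WT tumour. Angpt2, the Tie2 antagonist of sprouting vessels, had 212 and 127 CPM in KO, against 272 and 746 CPM in WT (log2 fold change -1.44, SE 0.44, edgeR adjusted p = 0.192). Its log2 fold change was -0.67 without the second WT tumour, -2.11 without the first WT tumour and -1.88 without the first KO tumour. Esm1, another tip cell product, had 281 and 142 CPM in KO, against 210 and 379 CPM in WT, and its groups overlapped. Apln kept its call without any 1 tumour, at a log2 fold change of -3.00 without the first KO tumour, and lost it without normalization factors (edgeR adjusted p = 0.0517), after subtraction of free RNA (0.0584), with up to 1 Ptprc UMI allowed (0.106) and at equal depth (0.0692). Igfbp3 lost its call without the first KO tumour (log2 fold change -1.70, edgeR adjusted p = 0.207) and stood at -3.00 without the second.

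Genes of hypoxia and glycolysis were lower in KO alongside the tip genes. Of 23 tested, 2 fell (Egln3 and Bnip3), none rose and 20 were lower, with a median log2 fold change of -0.71. Without the first WT tumour the median was -0.24, with 16 of 22 genes lower. Egln3, an oxygen-sensing prolyl hydroxylase that hypoxia induces, had 6.1 and 5.2 CPM in KO, against 43.8 and 75.8 CPM in WT (log2 fold change -3.13, SE 0.59, edgeR adjusted p = 0.0457). Its second WT value came from 6 UMIs of 1 cell. Bnip3, a mitophagy receptor induced by hypoxia, had 12.2 and 20.8 CPM in KO, against 87.7 and 88.5 CPM in WT (log2 fold change -2.37, SE 0.41, edgeR adjusted p = 0.034). Ankrd37, another hypoxia-induced gene, had 12.2 and 15.6 CPM in KO, against 66.9 and 63.2 CPM in WT, and did not pass (log2 fold change -2.22, SE 0.43, edgeR adjusted p = 0.0501). Adm, the vasodilator peptide adrenomedullin, had 4.57 and 13.01 CPM in KO, against 50.8 and 164 CPM in WT, and did not pass either (log2 fold change -3.08, SE 0.65, edgeR adjusted p = 0.0598). In the 4 fits without 1 tumour Adm stood at -4.06 without the second KO tumour, -4.11 without the first WT tumour, -2.45 without the second and -2.63 without the first KO tumour. Ldha, a glycolytic enzyme gene, had 329 and 365 CPM in KO, against 782 and 341 CPM in WT, with overlapping groups. Bnip3 lost its call without the first WT tumour (log2 fold change -2.35, edgeR adjusted p = 0.193), and Egln3 was then too low to be tested. In all other barcodes the list summed to 9123 and 8895 CPM in KO, against 9794 and 8547 in WT, without the separation seen in the endothelial cells (4305 and 4880 in KO, against 7697 and 5590 in WT). The 7 tumour genes of the rule summed to 228 and 283 CPM in the KO endothelial cells, against 626 and 99.4 CPM in the WT cells, so the first WT tumour was the highest in both, and the part of tumour-cell RNA was not tested.

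**Figure D4:**
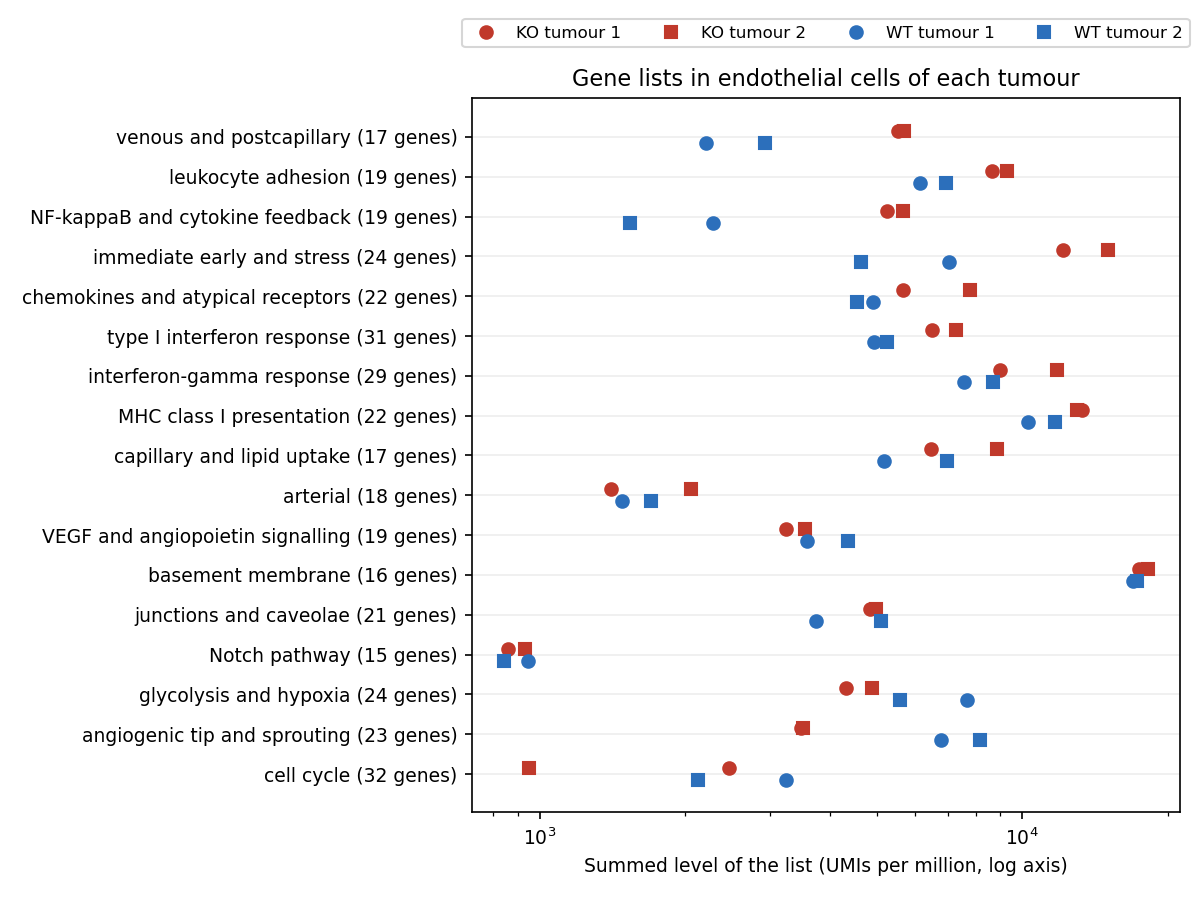
Summed levels of 17 gene lists in the endothelial cells of each tumour (CPM, log axis), KO tumours in red above WT tumours in blue on each line. The venous list (5523 and 5692 in KO, against 2214 and 2931 in WT) and the tip list (3473 and 3517 in KO, against 6771 and 8186 in WT) separate in opposite directions, while the arterial and Notch lists overlap.

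Within single cells the balance of the venous and tip lists lay further to the venous side in both KO tumours. The venous list had a median of 34.2 and 36.1 UMIs per 10000 in KO cells, against 23.3 and 25.2 in WT cells, and reached 196 and 237 in single KO cells, against 163 and 56.9 in single WT cells. The tip list had a median of 30.7 and 26.9 UMIs per 10000 in KO cells, against 59.0 and 45.5 in WT cells. In 26 of 47 (55.3%) and 41 of 72 (56.9%) KO cells the venous list exceeded the tip list, against 17 of 48 (35.4%) and 4 of 13 (30.8%) WT cells. At least 1 UMI of Selp, Sele or Ackr1 was present in 24 and 35 KO cells and in 13 and 1 WT cells, and at least 1 UMI of Apln, Igfbp3 or Esm1 in 27 and 36 KO cells and in 35 and 6 WT cells. These counts grow with depth, which was higher in KO, and fibroblast-gate cells also showed Igfbp3, in 16.8% and 25.1% of KO and 3.48% and 0.533% of WT cells. Thinned to 1000 UMIs, 47.8% and 46.5% of KO cells showed at least 3 tip genes, against 69.6% and 53.8% of WT cells. With at least 2 tip genes, which was the main measure, the groups overlapped, at 69.6% and 67.6% in KO, against 80.4% and 61.5% in WT. More cells of a venous kind and more venous RNA per cell cannot be told apart in the sums.

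**Figure D5:**
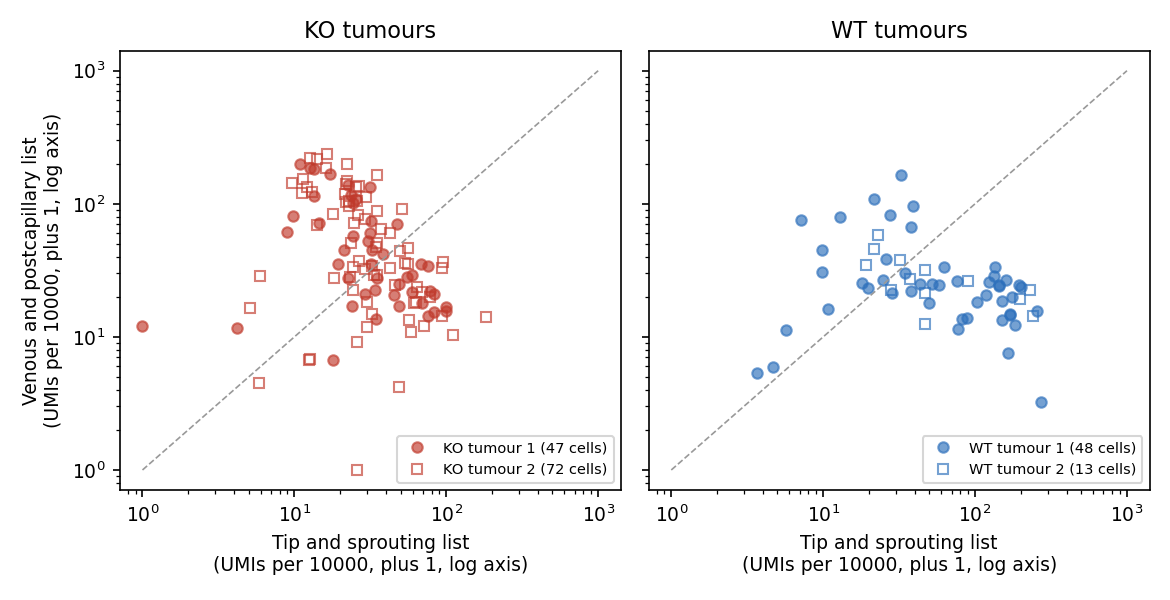
Each point is 1 endothelial cell, placed by its tip and sprouting list (horizontal) and its venous and postcapillary list (vertical), both in UMIs per 10000 plus 1 on log axes, with KO tumours on the left and WT tumours on the right. Above the dashed line the venous list is the larger, which holds for 26 and 41 KO cells and for 17 and 4 WT cells.

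Cell cycle genes depended on which tumours entered. None of 29 tested passed with edgeR, 8 were lower at an unadjusted p under 0.05, DESeq2 also called none, and all 29 were lower, with a median log2 fold change of -0.80. Top2a, the topoisomerase of dividing cells, had 320 and 65.03 CPM in KO, against 311 and 215 CPM in WT, so the first KO tumour matched the first WT tumour and the difference lay in the second KO tumour. Mki67, a marker of proliferation, had 303 and 66.3 CPM in KO, against 288 and 164 CPM in WT, in the same pattern. Without the second KO tumour the median was -0.14 and without the first WT tumour -0.04, with none past the threshold. Without the first KO tumour it was -1.50, with Top2a at -2.05 and Mki67 at -1.84, and without the second WT tumour it was -0.96. Without cells with 3 mural or macrophage genes it was -2.34, with 7 of 14 fallen. Cdca8, a subunit of the chromosomal passenger complex outside the list, fell to 41.2 and 33.8 CPM in KO, against 138 and 126 CPM in WT (log2 fold change -1.85, SE 0.32, edgeR adjusted p = 0.034), a call lost without the second KO tumour (-1.68, edgeR adjusted p = 0.116) or the first WT tumour (-1.72, edgeR adjusted p = 0.168).

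Of 26 endothelial genes outside the rule 1 rose (Vwf), none fell and 17 were higher in KO, with a median log2 fold change of 0.13, and 8 lists on vessel type, signalling and structure held no gene that passed. In the VEGF and angiopoietin list 0 of 16 passed (5 higher and 6 lower at an unadjusted p under 0.05, DESeq2 called 1 lower). Flt1, the decoy-like VEGF receptor, had 566 and 721 CPM in KO, against 1276 and 1112 CPM in WT (log2 fold change -0.90, SE 0.29, edgeR adjusted p = 0.213), whereas Ptprb had 790 and 816 CPM in KO, against 401 and 391.8 CPM in WT (log2 fold change 1.01, SE 0.27, edgeR adjusted p = 0.14). Neither gene's groups overlapped. The arterial list (0 of 14, 3 higher at an unadjusted p under 0.05), the capillary list (0 of 13, 3 higher), the Notch list (0 of 11, 2 higher) and the junction list (0 of 16, 1 higher) had medians between -0.03 and 0.11. In the basement membrane list 0 of 16 passed (1 higher and 3 lower at an unadjusted p under 0.05), and Col4a1, a chain of type IV collagen, had 3705 and 3672 CPM in KO, against 2990 and 3539 CPM in WT. In the BMP and TGF-beta list 0 of 14 passed (1 higher), and in the list of flow response and vascular tone 0 of 12 (2 higher and 2 lower). DESeq2 called 1 arterial gene higher and 1 gene of the flow list lower, and none of the capillary, Notch, junction, basement membrane or BMP lists. Fabp4, the fatty acid carrier of capillaries, had 3193 and 4725 CPM in KO, against 2016 and 3906 CPM in WT, with overlapping groups. Notch1 had 172 and 187 CPM in KO, against 166 and 177 CPM in WT, and Eng, the endothelial co-receptor of BMP9, had 752 and 825 CPM in KO, against 604 and 872 CPM in WT. Cxcl12, an arterial chemokine, Cavin3, a coat protein of caveolae, and Ramp2, the adrenomedullin receptor partner, had log2 fold changes of -0.17, -0.07 and 0.32. Aqp1, the water channel, had 848 and 1078 CPM in KO, against 491 and 228 CPM in WT, and did not pass (log2 fold change 1.31, SE 0.35, edgeR adjusted p = 0.132). Its log2 fold change was 2.11 without the first WT tumour and 0.99 without the second.

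MHC class I and interferon genes had slightly higher medians in KO, and only Icam1 among them passed. Of 22 genes of MHC class I presentation none passed, 2 were higher at an unadjusted p under 0.05 and 19 were higher in all, with a median log2 fold change of 0.30. B2m, the class I light chain, had 3152 and 2759 CPM in KO, against 2399 and 2768 CPM in WT, and its groups overlapped. Of 24 type I interferon genes none passed (8 higher at an unadjusted p under 0.05, median 0.55), and of 25 interferon-gamma genes only Icam1 did (7 higher, median 0.48). Irf1, an interferon-induced transcription factor chosen after its values were seen, had 380 and 531 CPM in KO, against 221 and 215 CPM in WT (log2 fold change 1.05, SE 0.30, edgeR adjusted p = 0.154). Cxcl9, the interferon-induced chemokine that attracts T cells, was abundant in the endothelium at 2758 and 4826 CPM in KO, against 3391 and 3729 CPM in WT, and did not separate the groups. Of 8 class II genes none passed (0 at an unadjusted p under 0.05), and of 12 T cell inhibitory ligands none passed (3 higher). The class II list summed to 1120 and 1648 CPM in KO, against 837 and 1975 in WT, so its groups overlapped. Without the first WT tumour the class II median was -0.54, with 7 of 8 genes lower. The class I median was then 0.12, the type I interferon median 0.48 and the interferon-gamma median 0.31, against 0.17 over all genes. DESeq2 called no gene of the MHC or type I interferon lists or of the inhibitory ligands. Cd274, the gene of PD-L1, had 59.5 and 98.9 CPM in KO, against 41.5 and 37.9 CPM in WT (log2 fold change 0.96, SE 0.41, edgeR adjusted p = 0.39). Hnrnpa2b1 itself had 567 and 336 CPM in the KO tumours' endothelium, against 531 and 619 CPM in that of WT tumours, and its groups overlapped (log2 fold change -0.33, SE 0.31, edgeR adjusted p = 0.764).

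Some genes that rose belong to other cell types and rested on few cells. RNA of macrophages was broader: at least 3 macrophage genes were detected in 35 of 47 and 29 of 72 KO cells, against 5 of 48 and 2 of 13 WT cells. Removing these and the cells with 3 mural genes left 12 and 42 cells in KO, against 42 and 11 in WT, and of 3699 genes then tested 98 passed, 32 of the 40 among them. The summed macrophage list stood at 419 and 330 CPM in KO, against 298 and 994 CPM in WT. Rgs5, a regulator of G protein signalling typical of pericytes, had 79.3 and 52.0 CPM in KO and no UMI in WT, at least 11.1-fold higher against a floor of 3 counts over the WT group. It came from 3 cells in each KO tumour, and 50 of the 52 UMIs of the first were in 1 cell. Acta2, smooth muscle actin, had 71 UMIs in KO against 1 in WT (ratio 25.8, counting interval 4.48 to 1032), and Meg3, a long non-coding RNA, had 118 against 1 (ratio 42.8, counting interval 7.54 to 1705). The mural marker list summed to 325 and 243 CPM in KO, against 148 and 99.4 in WT, and the fibroblast list to 1277 and 437 in KO, against 508 and 124 in WT. In the first KO tumour 1 cell held 169 of 209 mural UMIs, 1 held 481 of 822 fibroblast UMIs and 1 held 249 of 276 neutrophil UMIs, and in the second WT tumour 1 cell held 63 of 80 macrophage UMIs. None of these 3 genes was tested once cells with at least 20 UMIs per 10000 of any foreign list were removed, and 37 of the 40 calls remained. T and NK cell markers summed to 54.4 and 55.8 CPM in KO, against 16.2 and 12.4 in WT, and Cd4, Klrb1c and Cd2 were at 0. Rgs5, Acta2 and Meg3 lost their calls without the first WT tumour (edgeR adjusted p = 0.109, 0.203 and 0.115), and the WT value then rested on the 13 cells of the second.

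The other genes that rose most were of mixed kind. Nts, the neuropeptide neurotensin and the only 1 of 3 tested lymphatic genes that passed, had 93.0 and 176 CPM in KO, against 9.23 and 25.3 CPM in WT (log2 fold change 3.47, SE 0.58, edgeR adjusted p = 0.034). It was found in 4 and 12 KO cells and in 2 and 1 WT cells, and 1 cell of the second KO tumour held 71 of its 135 UMIs. It lost its call without the first WT tumour (log2 fold change 2.44, edgeR adjusted p = 0.194). Nr4a2, an inducible nuclear receptor, had 97.6 and 111 CPM in KO, against 13.8 and 37.9 CPM in WT (log2 fold change 2.50, SE 0.46, edgeR adjusted p = 0.0383), a call also lost without that tumour (1.49, edgeR adjusted p = 0.428). Lncpint, a non-coding RNA, had 79.3 and 81.9 CPM in KO, against 11.5 CPM and 0 in WT (log2 fold change 3.04, SE 0.53, edgeR adjusted p = 0.034), and a log2 fold change of 8.34 without the first WT tumour. The unnamed transcripts Gm37728 and 5330406M23Rik had 92 and 65 UMIs in KO, against 2 and 1 in WT (ratios 16.7 and 23.6, counting intervals 4.49 to 139.9 and 4.09 to 946). Both lost their calls without the first WT tumour (edgeR adjusted p = 0.114 and 0.247), and 5330406M23Rik also without the second KO tumour (0.119). Sox7, an endothelial transcription factor named after its values were seen, had 152 and 182 CPM in KO, against 27.7 and 50.6 CPM in WT (log2 fold change 2.37, SE 0.38, edgeR adjusted p = 0.0289), a call that was lost without the first WT tumour (1.75, edgeR adjusted p = 0.197).

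Whether a change differed from that in the barcodes of a fibroblast gate or a mural gate was tested by the interaction of cell class and group. Fibroblast-gate cells, barcodes with at least 4 of 8 fibroblast genes, numbered 519 and 475 in KO, against 3107 and 3374 in WT. Their Xist RNA stood at 288 and 185 CPM in KO, against 20.6 and 29.7 in WT, and that of the endothelial cells at 1159 and 812 in KO, against 453 and 658 in WT, so the WT gate was not made of the same cells as the KO gate. In WT barcodes above the tumour-gene limit Xist stood at 7.61 and 6.57 CPM, close to the WT gate. The gate's genes summed to 34838 and 18340 CPM in KO, against 5383 and 5997 in WT. The WT gate is therefore not shown to be stromal and resembles tumour cells in its Xist level. Of the 40 genes that passed in endothelial cells, 11 changed differently there than in fibroblast-gate cells (against 1.65% of 13861 genes, 0.476% above and 1.18% below 0). When the gate required 100 UMIs of its genes per 10000, 4 did so (Cdca8, Hspa1b, Igfbp3 and Traf1, against 0.728% of genes). Xist in that stricter gate still stood at 640 and 532 CPM in KO, against 119 and 188 in WT. The 40 genes were chosen on the same endothelial sums that enter this test. A share above that of all genes therefore follows from the choice and is not evidence of a change particular to endothelium. Igfbp3 alone also differed from mural-gate cells (log2 difference -4.51, SE 0.78), of which there were 52 and 64 in KO, against 45 and 5 in WT, and 0.176% of 8516 genes passed there (0.047% above and 0.129% below 0). No gene passed against mural-gate cells without the first or without the second KO tumour, where 190 and 157 had an unadjusted p under 0.05. The differences for Icam1, at -1.25 against fibroblast-gate cells (SE 0.43, edgeR adjusted p = 0.142) and 0.65 against mural-gate cells (SE 0.63), did not pass, and those for Selp and Sele did not pass either.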

How the data were processed

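Droplet-based single-cell RNA-seq of 4 tumours (2 KO, 2 WT) was used. The authors deposited gene-by-barcode matrices of UMI counts, whole numbers with no normalization. Per the labels' protocols reads were processed with Cell Ranger 5.0.1, while the file headers name version 6.1.2, and the build was mm10, per the submitters' processing notes, which also list Seurat 5.1.0 without its role. All 55450 feature IDs were found in GENCODE vM21, which gave gene coordinates. Of 43494 barcodes, 42710 passed the filters given in the report. The members, gene lists, motifs and tests were chosen with earlier results of these data known.

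Counts were summed per tumour over endothelial cells and tested in edgeR 4.0.16 (R 4.3.3; filterByExpr, TMM, quasi-likelihood F test, Benjamini-Hochberg adjustment over all genes tested, threshold 0.05). Numbers of barcodes per class were tested the same way without TMM. On simulated counts for this comparison with 6722 genes, 95% of 4-fold and 21% of 2-fold changes were called, with 5 false calls. The changed genes came from those averaging at least 50 CPM, and no simulated tumour was made to depart from its group. These shares therefore do not cover lower genes or such a tumour. Genes of the rule stayed in the fit, and no test is read from them. Named genes were up to 15 that rose and 15 that fell with the largest change among those that passed, had both KO tumours beyond both WT tumours and averaged at least 20 CPM, and up to 4 members of each list that passed, or the 3 highest. Further names, given where a related gene helps the reader, were chosen after their values were seen: Vcam1, Il6st, Glycam1, Nfkbia, Traf1, Trp53i11, Esm1, Ankrd37, Adm, Ldha, Cxcl1, Cxcl2, Cxcl9, Cxcl10, Cd274, Eln, Prox1, Lyve1 and those marked in the report. No doublets were removed beyond the rule, since the threshold Scrublet (scanpy 1.11.5) set for itself marked 0% and 0.00892% of the WT barcodes. Removal of the highest scores was tried as an alternative, as were DESeq2 1.42.0 and the settings in the closing section. Tumour numbers 1 and 2 recur in both groups, and deviations of same-numbered tumours from their group means correlated at 0.0382 over 7158 genes, so the numbers were not taken as pairs. The labels do not say what the tumours of a group share, so p-values measure the spread between these tumours. Intervals and floors cover counting error only. Promoter sequences are from RefSeq (GRCm38.p6).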

Additional observations from a re-analysis of the deposited data

Results flagged for a closer look

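Barcodes outside the rule also carried endothelial RNA. Among 31 barcodes with at least 3 endothelial genes and exactly 1 Ptprc UMI, Tie1 stood at 363 CPM, close to the 321 of the cells with all 7 rule genes, and 34 further barcodes had more than 1 Ptprc UMI. Including barcodes with 1 Ptprc UMI gave 60 and 83 cells in KO, against 52 and 16 in WT.

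For 11 of the genes that passed, the change in endothelial cells differed from that in fibroblast-gate cells by the interaction test in edgeR. The log2 differences, endothelial minus fibroblast-gate, were above 0 for Hspa1b (2.91), Traf1 (2.35), Nr4a2 (2.07), Egr1 (2.06), Clu (2.04), D16Ertd472e (2.00) and Fryl (1.84). They were below 0 for Igfbp3 (-5.37), Egln3 (-2.64), Apln (-2.62) and Cdca8 (-1.57). Igfbp3 also differed from mural-gate cells (-4.51). The fibroblast gate differed in make-up between KO and WT, as its Xist levels show, and the part of that in these differences was not tested. The genes were also chosen on the same endothelial sums that enter the interaction test.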

How the results depend on the processing

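The second WT tumour's 13 cells limit all comparisons, and the number of calls moved widely. Against 40 calls, the count was 249 without a filter on low counts, 132 with the tumour number as a replicate block, 62 without high Scrublet scores, 98 without cells with 3 mural or macrophage genes and 68 with at least 2000 UMIs per cell. It ran from 83 to 422 when 1 tumour was left out, with the highest value without the second WT tumour. Alternatives chosen after seeing the data gave 6 calls after subtraction of free RNA scaled on T and NK markers and 8 at equal depth, where 1528 genes could be tested. That subtraction rested on 35 and 43 marker UMIs in the KO cells and on only 7 and 1 in the WT cells, so its WT part is uncertain. Egr1, Fosb, Hspa1b and Icam1 passed under all 16 alternatives. DESeq2 called 27 genes, of which 19 were among the 40, and all 40 were called with the replicate block. For the shares, leaving out 1 tumour gave log2 ratios from 0.73 to 2.43 against all barcodes and from 0.23 to 2.29 below the tumour-gene limit, and the replicate block gave 1.51 and 1.18 without passing. The 229 genes that differed from fibroblast-gate cells became 87 with the stricter gate and 85 to 126 without 1 tumour. The 15 that differed from mural-gate cells became 26 without normalization factors and 0 to 57 without 1 tumour. The difference in cells with at least 2 venous genes, 13.1 percentage points, was -0.73 without thinning and 4.41 with at least 1 gene, and that for lymphatic genes, -1.47, was 3.93 without thinning. Lgals1, an inhibitory ligand gene at -0.52, ran from -1.20 without the second WT tumour to 1.16 without the first. Medians kept their sign for the venous list (0.99 to 1.61) and the tip list (-0.95 to -0.49) under all 16 alternatives. Under the no-filter setting and without the first WT tumour the median of all genes moved to 0.20 and 0.17.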

Other observations

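Chemokines of the endothelium were uneven between groups. Of 19 genes tested in the list of chemokines and atypical receptors, 2 rose (Csf3 and Ackr1), none fell and 15 were higher in KO. The median log2 fold change was 0.83, or 1.97 without the first WT tumour. Csf3 is a cytokine and Ackr1 a receptor, so no chemokine of the list passed. Cxcl1 and Cxcl2, which attract neutrophils, and Cxcl10 did not pass with edgeR on all 4 tumours. Cxcl1 had 242 and 282 CPM in KO, against 94.6 CPM and 0 in WT (adjusted p = 0.12), and Cxcl2 had 169 and 103 CPM in KO, against 27.7 CPM and 0 in WT (adjusted p = 0.0516). Cxcl10, which attracts activated T cells, had 1095 and 1158 CPM in KO, against 395 and 50.6 CPM in WT (adjusted p = 0.102). In all other barcodes Cxcl10 had 823 and 810 CPM in KO, against 146 and 226 CPM in WT. Eln, the elastin gene, had 102 and 281 CPM in KO, against 30.0 and 12.6 CPM in WT and did not pass with edgeR (adjusted p = 0.0552), and 1 cell of the second KO tumour held 103 of its UMIs.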
